A study of Arabidopsis thaliana with 4 samples.

Results

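Dof proteins are plant transcription factors with a single zinc finger (DNA-binding with One Finger). The family was taken as 36 Arabidopsis loci. A locus was measured where the platform's table tied a probe set to that gene alone, and 12 of the 36 loci had such a probe set, each of them exactly 1. The measured loci were AT1G21340, AT1G26790, AT1G29160, AT1G47655, AT1G64620, AT1G69570, AT2G28510, AT2G28810, AT2G34140, AT4G24060, AT5G02460 and AT5G66940. The other 24, among them CDF1, CDF2, CDF3, DAG1, DAG2, OBP1 to OBP4, TMO6 and HCA2, are not analysed here. No probe set listed for several genes named a Dof locus, and 8730 of the 22746 tested probe sets had no gene in the table.

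The series asked whether a strigolactone supplied from outside alters transcript levels in a mutant deficient in its own strigolactones. All 4 arrays carried RNA of whole seedlings, 14 days old, of the max3 mutant in the Col strain, so the mutation is shared by both groups. MAX3 encodes a carotenoid cleavage dioxygenase of strigolactone synthesis. The GR24 group (2 arrays) received GR24, a synthetic strigolactone, at 1 µM for 90 min, and the mock group (2 arrays) received the solvent dimethyl sulfoxide for the same time. Replicates 1 and 2 were independent analyses with seedlings raised separately, and each holds 1 GR24 and 1 mock array. The number of arrays limits the precision of every value below.

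Dof factors bind short AAAG elements in promoters and act as activators or repressors. Cycling Dof factors (CDFs) accumulate early in the day, repress the flowering genes CONSTANS and FLOWERING LOCUS T, and are degraded later in the day through FKF1 and GIGANTEA. Other Dof factors promote cell division in the procambium and the early phloem, shape veins, control seed germination or act in guard cells. The tables used here list the 12 measured genes by locus only, and the literature names and roles given below are background.

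Of the 12 measured Dof genes, 2 rose with GR24, 0 fell and 10 did not pass the test. The risers were AT2G34140, which is CDF4, at 2.00-fold, and AT1G29160, which is COG1, at 1.74-fold. Over all 22746 probe sets, 0.145% passed as higher with GR24, 0.158% as lower and 0.303% in either direction. Both risers belong to the clade of the cycling Dof factors, from which 4 of 7 loci were measured. None of the 4 measured genes grouped here as vascular Dof genes and none of the 4 remaining ones passed. Members and clades were chosen with earlier results of these data known. The counts by family and by clade, here and below, are thus descriptive, and neither was tested as a set. With limma, treatment and replicate number were fitted in 1 linear model to all probe sets. The two-sided moderated test was then computed outside limma's own routine, with a prior variance estimated by maximum likelihood. P-values given below as from limma are from this procedure unless another setting is named. P-values were adjusted by Benjamini and Hochberg's method over the 22746 probe sets, with a threshold of 0.05. A value after ± is the moderated SE of that paired model (n = 2 pairs) unless SD is stated, and it rests mainly on the variance that all probe sets share. In RNA of whole seedlings, more cells of a type and more RNA per cell cannot be told apart.

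AT2G34140 encodes CDF4, a cycling Dof factor also known for its part in columella differentiation at the root tip. Its log2 RMA values were 8.78 and 8.48 with GR24 (replicates 1 and 2), against 7.75 and 7.52 in mock seedlings. Both GR24 arrays lay above both mock arrays, and the lowest GR24 value was well clear of the highest mock value. The GR24 group averaged 8.63 ± 0.21 and the mock group 7.63 ± 0.16 (log2, SD, n = 2 each). Within replicate 1 the gene was 2.05-fold higher with GR24 and within replicate 2 it was 1.95-fold higher. The log2 change of 1.00 ± 0.10 (95% interval 0.77 to 1.23) passed in the paired limma model with an adjusted p of 0.00766. It was place 10 by size among the 33 rises called over all probe sets. The change of AT2G34140 was larger in absolute size than that of all but 0.132% of the probe sets tested.

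AT1G29160 encodes COG1, a Dof factor first described as a negative regulator of phytochrome signalling. Its log2 RMA values were 7.80 and 7.49 in GR24 seedlings (replicates 1 and 2), against 7.05 and 6.63 in mock seedlings. As with AT2G34140, the groups did not overlap, and in both groups the array of replicate 1 was the higher one. The means were 7.64 ± 0.22 with GR24 and 6.84 ± 0.29 in mock (log2, SD, n = 2 each). The gene was 1.68-fold higher with GR24 in replicate 1 and 1.81-fold higher in replicate 2. Its log2 change was 0.80 ± 0.10 (95% interval 0.57 to 1.03, adjusted p = 0.0176 in the paired limma model), place 20 by size among the 33 rises. With 16 added to the linear values before taking log2, the call of AT1G29160 was lost (log2 change 0.72, adjusted p = 0.0531 in limma), while its adjusted p lay between 0.000146 and 0.0300 under the other settings that kept the pairing. Neither riser was called when the pairing was ignored (adjusted p = 1 for both in limma, unadjusted p = 0.00174 for AT2G34140 and 0.00992 for AT1G29160), a fit in which 0 of all probe sets passed and 341 had an unadjusted p under 0.05.

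**Figure D1:**
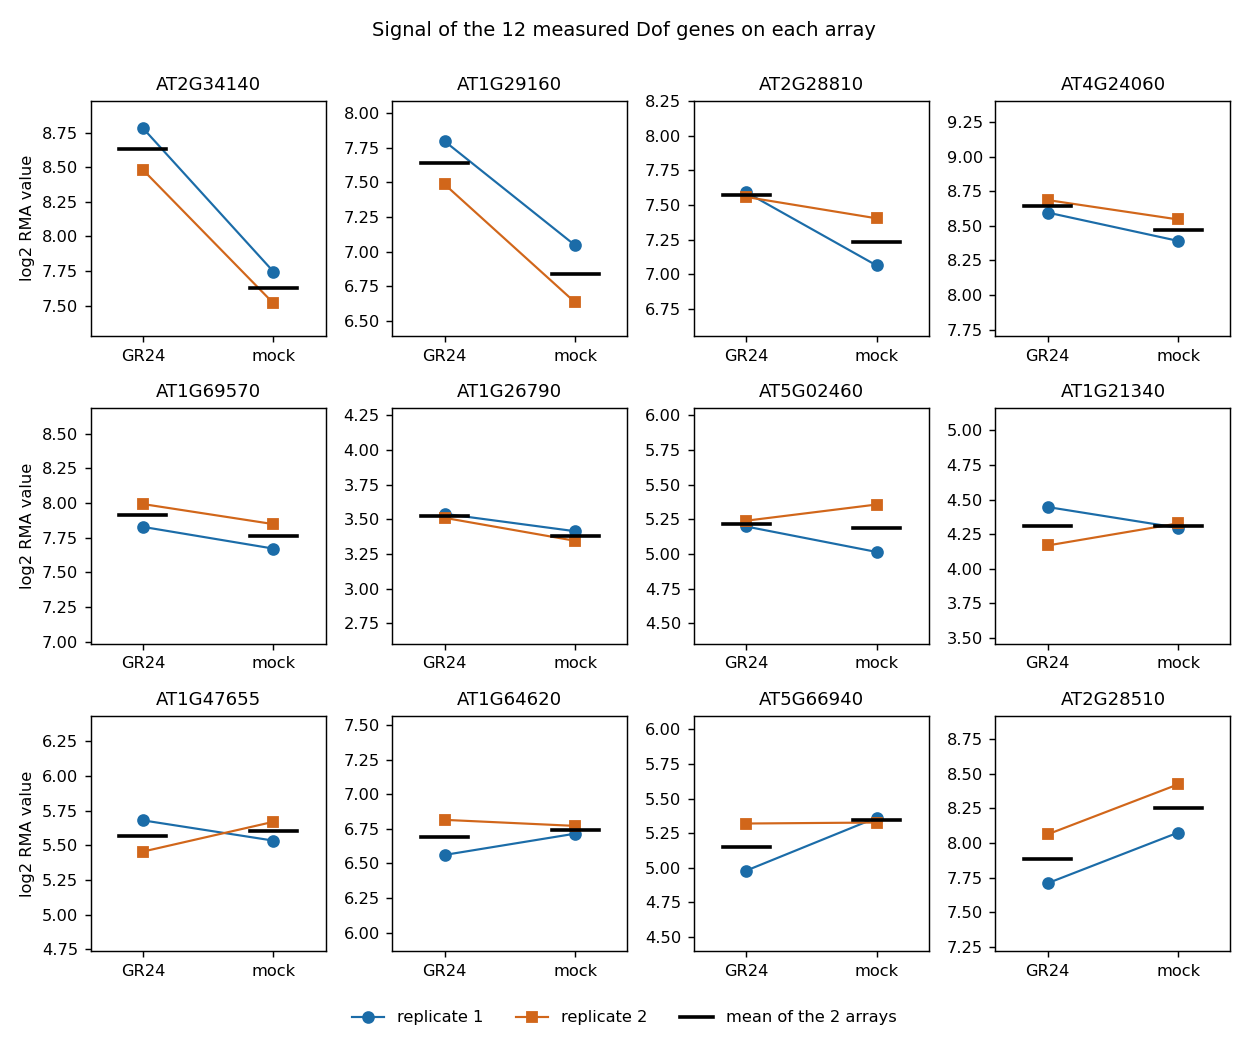
Log2 RMA value (y axis, 1 panel per gene, each spanning the same number of log2 units) of the 12 measured Dof genes with GR24 and mock (x axis). Points are single arrays, lines join the arrays of 1 replicate number, and black bars are means of 2 arrays. Both lines run steeply down to mock for AT2G34140 and AT1G29160, with GR24 means of 8.63 and 7.64 against mock means of 7.63 and 6.84.

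The other measured genes of the CDF clade did not pass. AT1G69570, which is CDF5, another repressor of flowering, had log2 values of 7.83 and 7.99 with GR24 (replicates 1 and 2), against 7.67 and 7.85 in mock. Its groups overlapped, because both arrays of replicate 2 lay above those of replicate 1. The change was 0.16 in replicate 1 and 0.15 in replicate 2, which gave 0.15 ± 0.10 (95% interval -0.08 to 0.38, adjusted p = 0.835 in the paired limma model). AT1G26790, also named DOF1.3, had log2 values of 3.54 and 3.51 with GR24 and 3.41 and 3.34 in mock. This probe set was among the dimmest 25% by mean signal, the groups did not overlap, and the change was 0.15 ± 0.10 (adjusted p = 0.847 in limma). The intervals of AT1G69570 and AT1G26790 ended at 0.38 and 0.37, below the lower ends of the intervals of AT2G34140 and AT1G29160. Differences between genes were not tested.

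Among the vascular Dof genes, AT2G28510 had the largest change in size. This gene is DOF2.1, which acts in cytokinin-dependent cell division in the vascular tissue of the root. Its log2 values were 7.71 and 8.06 in GR24 seedlings (replicates 1 and 2), against 8.08 and 8.42 in mock seedlings. Both GR24 arrays lay below both mock arrays, the higher of them only just. The change was -0.37 in replicate 1 and -0.36 in replicate 2. The mean of -0.36 ± 0.10 did not pass after adjustment over all probe sets (95% interval -0.59 to -0.14, unadjusted p = 0.00595, adjusted p = 0.301 in the paired limma model). A larger absolute change was seen in 2.69% of all probe sets. With limma's default prior, under which 1.24% of all probe sets passed in either direction, the adjusted p of AT2G28510 was 0.153 and the same 2 Dof genes were called.

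AT4G24060 and AT1G64620 encode VDOF factors, which act in vein formation and lignin deposition. AT4G24060 had log2 values of 8.60 and 8.69 with GR24, against 8.39 and 8.55 in mock. The groups did not overlap, but the gap between them was small, and the change was 0.17 ± 0.10 (adjusted p = 0.798 in limma). AT1G64620 had log2 values of 6.56 and 6.81 with GR24 and 6.71 and 6.77 in mock, and its change was of opposite sign in the pairs (-0.15 in replicate 1, 0.04 in replicate 2). AT5G02460 encodes PEAR2, also named DOF5.1, a mobile factor of early phloem cells that promotes radial growth. Its log2 values of 5.20 and 5.24 with GR24 lay between the mock values of 5.01 and 5.36. The changes of AT5G02460 were 0.18 in replicate 1 and -0.12 in replicate 2, and the mean of 0.03 ± 0.11 had a 95% interval of -0.22 to 0.29.

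The 4 remaining measured genes are not given a role here. AT2G28810 had log2 values of 7.59 and 7.56 with GR24 (replicates 1 and 2), against 7.06 and 7.40 in mock. Both GR24 arrays lay above both mock arrays, but the change was 0.53 in replicate 1 and 0.15 in replicate 2. The mean of 0.34 ± 0.12 did not pass (95% interval 0.07 to 0.61, unadjusted p = 0.0192, adjusted p = 0.488 in the paired limma model). AT5G66940 had log2 values of 4.98 and 5.32 with GR24, against 5.36 and 5.33 in mock. The groups did not overlap, yet almost all of the change came from replicate 1 (-0.38, against -0.01 in replicate 2). AT1G21340 differed by 0.15 in replicate 1 and -0.16 in replicate 2, and AT1G47655 by 0.15 and -0.22, so both were of opposite sign in the pairs. Their means were -0.0047 for AT1G21340 (95% interval -0.26 to 0.25) and -0.03 for AT1G47655 (-0.30 to 0.23).

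**Figure D2:**
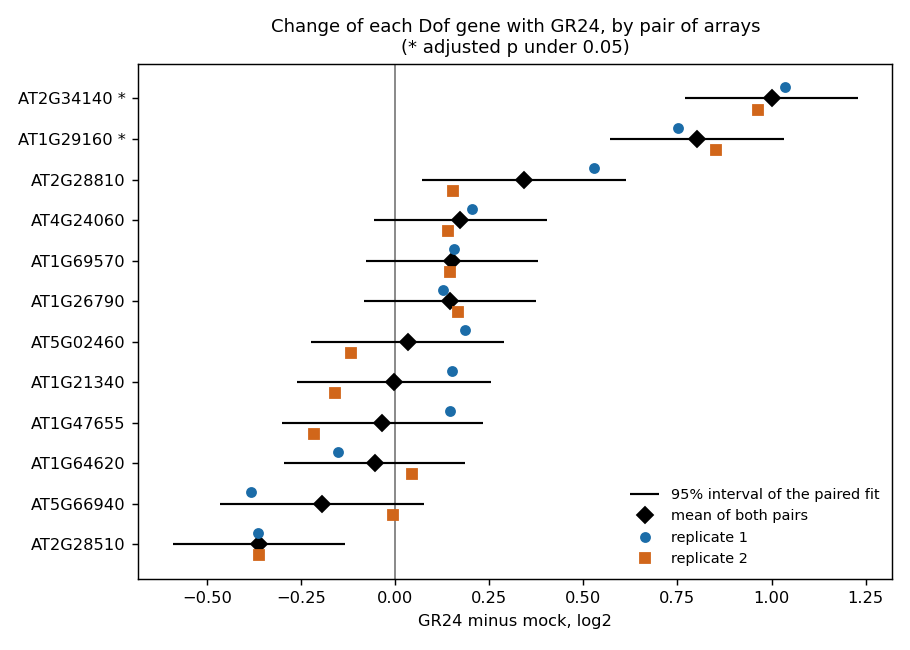
GR24 minus mock on the log2 scale (x axis) for each of the 12 measured Dof genes (y axis), sorted by the mean. Circles and squares are the changes within replicates 1 and 2, diamonds their means and lines the 95% intervals of the paired model. The pairs lie close together for AT2G34140 (1.04 and 0.96), AT1G29160 (0.75 and 0.85) and AT2G28510 (-0.37 and -0.36), and on opposite sides of 0 for 4 genes.

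Across the 12 genes, 6 were higher with GR24 in both pairs, 2 were lower in both and 4 had opposite signs. A same sign in both pairs was found for 8 of 12 Dof genes and for 52.0% of all probe sets. In 7 Dof genes the groups did not overlap, 5 with the GR24 arrays above and 2 with them below, whereas 23.1% of all probe sets had groups that did not overlap. A change of at least 1.5-fold in the same direction in both pairs was seen for 2 Dof genes, the called risers, and for 0.312% of all probe sets. The median change was 0.09 over the 12 Dof genes and 0.01 over all probe sets. The median absolute change was 0.16 for the Dof genes and 0.08 for all probe sets. The 10 Dof genes that did not pass differed by -0.36 to 0.34, and their adjusted p in limma lay between 0.301 and 0.998. Their 95% intervals reached from -0.59 to 0.61, and the smallest change called among all probe sets was 0.65 in size. No change smaller than that was called for any probe set with these 2 pairs.

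**Figure D3:**
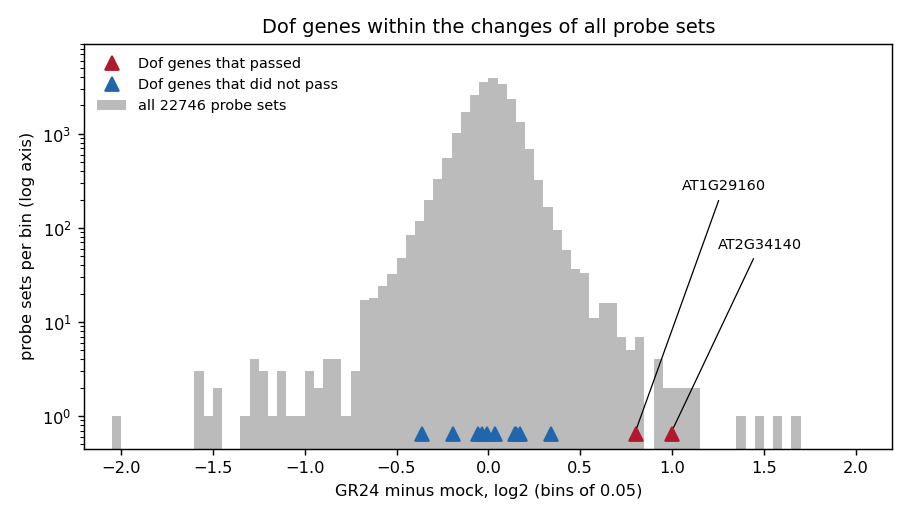
Number of probe sets (y axis, log scale) by change with GR24 (x axis, log2, bins of 0.05), with triangles at the changes of the 12 Dof genes. The 10 Dof genes that did not pass lie within -0.36 to 0.34, where most of the 22746 probe sets are, and AT1G29160 and AT2G34140 lie in the sparse right tail at 0.80 and 1.00.

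The levels were also compared between the separately raised preparations. With treatment as a block, 1 of the 12 Dof genes was higher in replicate 2 and 1 was lower, while 8.14% of all probe sets passed as higher, 8.59% as lower and 16.7% in either direction. The Dof share, 16.7%, was thus the same as that of all probe sets. AT2G28510 was higher in replicate 2 by 0.35 ± 0.10 on the log2 scale (adjusted p = 0.0456 in limma), a difference of 0.35 among GR24 arrays and 0.35 among mock arrays. AT1G29160 was lower in replicate 2 by a log2 difference of -0.36 ± 0.10 (adjusted p = 0.0432 in limma), with -0.31 among GR24 arrays and -0.41 among mock arrays. The other riser, AT2G34140, differed by -0.26 ± 0.10 and did not pass (adjusted p = 0.111 in limma). For both risers the change with GR24 was larger in size than the difference between preparations, whereas for AT2G28510 the sizes were alike (-0.36 with GR24, 0.35 between preparations). Seedlings and the handling of arrays within a replicate cannot be told apart in these differences.

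**Figure D4:**
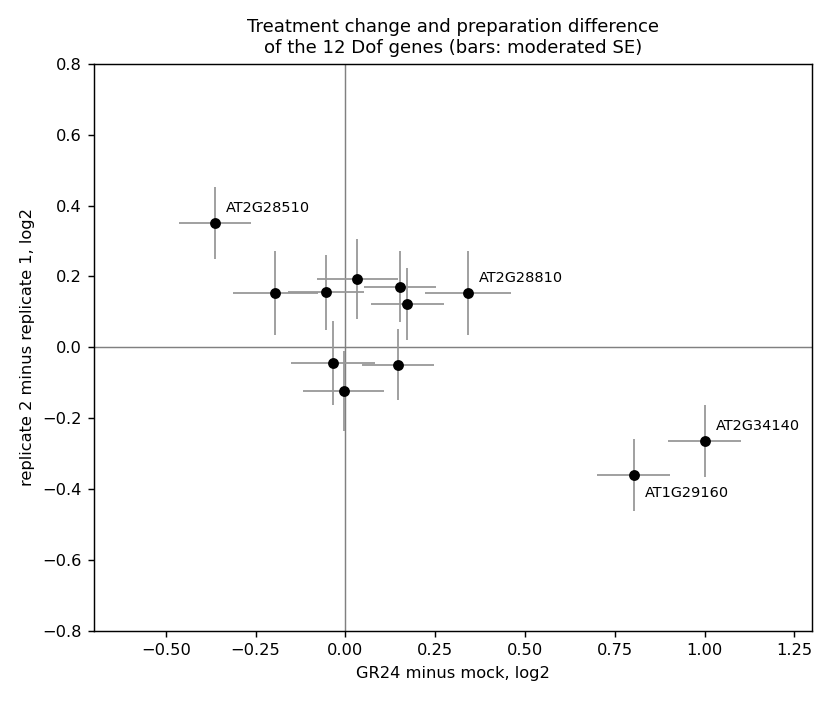
Change with GR24 (x axis, log2) against the difference between replicate 2 and replicate 1 (y axis, log2) for the 12 measured Dof genes, with moderated SE as bars. AT2G34140 and AT1G29160 stand at the right with preparation differences of -0.26 and -0.36, AT2G28510 stands at the upper left, AT2G28810 lies at 0.34 and 0.15, and the other 8 genes lie nearer the origin.

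Genes of the processes in which Dof factors act were taken from 11 lists with 134 genes, of which 12 genes in 7 lists had a probe set of their own. Of these 12 genes, 0 rose, 0 fell and 12 did not pass, beside 0.303% called over all probe sets in the paired limma model. With limma's default prior 0 passed as well, and 1 of the 12, CLE41, had an unadjusted p under 0.05 (0.0399 in the paired limma model). Their changes ranged from -0.27 to 0.24 with a median of 0.05, against a median of 0.01 over all probe sets. GIGANTEA (GI), the clock-controlled partner of FKF1 in CDF turnover, had log2 values of 8.65 and 8.60 with GR24, against 8.19 and 8.90 in mock. The GR24 arrays of GI lay between the mock arrays, and the change was 0.08 ± 0.16 (adjusted p = 0.968 in limma). The clock-related MYB gene RVE6 differed by -0.15 ± 0.10 (adjusted p = 0.831 in limma). For the bZIP gene HYH, a homologue of HY5 in light signalling, the difference was -0.55 in replicate 1 and 0.0071 in replicate 2, so the mean of -0.27 ± 0.14 (adjusted p = 0.746 in limma) rested on replicate 1.

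In the vascular list, 3 of 19 genes were measured. CLE41, which encodes a peptide that maintains the procambium, differed by 0.24 ± 0.10, PHV by -0.18 ± 0.10 and LHW, a bHLH factor of vascular cell division, by -0.04 ± 0.10, with adjusted p of 0.624 or more in the paired limma model. In the guard cell list, none of the 4 measured genes passed (adjusted p from 0.825 to 0.872 in limma). SPCH differed by 0.18 in replicate 1 and 0.13 in replicate 2. The differences were of opposite sign in the pairs for FAMA (0.61 and -0.13), MUTE (0.34 and -0.03) and PME6 (0.46 and -0.05), with the positive value in replicate 1 each time. As markers of the organs in the sample, the photosynthetic gene RCA had log2 values of 13.5 and 13.6 with GR24 and 13.4 and 13.6 in mock, and the root hair gene EXPA7 had 4.79 and 5.38 with GR24 and 4.84 and 5.58 in mock. Only 1 marker of each organ was measured, of 8 shoot and 10 root genes listed. RCA differed by 0.02 ± 0.10 (adjusted p = 0.992 in limma) and EXPA7 by -0.12 ± 0.10 (adjusted p = 0.881), and neither passed. No gene of the 19 in the strigolactone list, MAX3 and the response genes included, had a probe set of its own, and the level of the mutated gene is not analysed here.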

How the data were processed

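Single-channel oligonucleotide arrays measured RNA of 2 GR24 and 2 mock samples. The authors deposited log2 values from RMA, as the submitters' processing notes name it, whose version is not given in the sources used here. RMA removes background, brings the arrays to 1 distribution and summarises each probe set, and small differences between dim probe sets can be noise. Array medians lay between 7.03 and 7.06. Of 22810 probe sets, 64 controls were left out. Genes came from the platform's probe table through gene identifiers (13513 probe sets with 1 gene, 503 with several).

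Linear models were fitted with limma 3.58.1 in R 4.3.3 across all probe sets, with 1 residual degree of freedom. The moderated tests used a prior fitted by maximum likelihood outside limma (7.62 degrees of freedom, SD 0.107) and were first tried on simulated data. Pairing followed the replicate numbers, which mark separate seedling preparations in the series description, and the deviations of same-numbered arrays correlated at 0.712. In the paired fit, the p-values rest on the disagreement between the 2 pairs and mainly on the variance that all probe sets share. Both come from these samples alone, and this spread may be partly technical. All measured Dof genes are named. Of each list, genes that passed or otherwise the 2 brightest were to be named, and CLE41, MUTE and PME6 are given beyond that rule. Members, lists, clades and the prior were chosen with earlier results of these data known. Alternatives covered pairing, prior, moderation, scaling, offset, dim probe sets and left-out arrays.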

Additional observations from a re-analysis of the deposited data

How the results depend on the processing

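AT2G34140 and AT1G29160 stayed the called Dof genes in the paired fits with limma's default prior, trend and robust moderation, repeated quantile normalization, median centring and without the dimmest 25% of probe sets. With an offset of 16 on the linear values, 1 Dof gene (AT2G34140) and 24 of all probe sets passed, and without the replicate block 0 Dof genes and 0 probe sets. The count over all probe sets was 69 in the paired fit used, 281 with limma's default prior and 261 with trend and robust moderation. The cause of these shifts was not tested. With single arrays left out, which cannot be paired and assumes that the lone array varies like the other group, 0 Dof genes and 0 probe sets passed for each array. The changes of 4 genes that did not pass turned sign with an array or pair left out, between -0.16 and 0.15 for AT1G21340, -0.22 and 0.15 for AT1G47655, -0.18 and 0.072 for AT1G64620 and -0.14 and 0.20 for AT5G02460. Without pairing, AT2G34140 lay between 0.85 and 1.15 and AT1G29160 between 0.60 and 1.01 with 1 array left out. AT1G21340 was 0.0015 after repeated quantile normalization. The 2 Dof calls between preparations held with limma's default prior, both scalings, the offset and without the dimmest probe sets, the settings run for that contrast. Leaving out a whole pair or group leaves no test, so it gives no count. No measured Dof gene has a second probe set, so averaging changed nothing for them. There were no detection calls, so dim probe sets have no stated background.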

Other observations

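Between preparations, 2 of the 12 measured list genes passed, both higher in replicate 2, beside 16.7% of all probe sets in either direction and 8.14% as higher, so the share of list genes that passed in either direction was that of all probe sets. SPCH, which starts the stomatal lineage, had log2 values of 7.32 and 7.20 in replicate 2 (GR24 and mock), against 6.96 and 6.77 in replicate 1. Both arrays of replicate 2 were the higher ones, by 0.40 ± 0.10 on the log2 scale (n = 2 pairs, adjusted p = 0.0308 in limma). EXPA7, an expansin gene of root hairs, had 5.38 and 5.58 in replicate 2 (GR24 and mock), against 4.79 and 4.84 in replicate 1, a difference of 0.67 ± 0.10 (adjusted p = 0.00535 in limma). The other 10 list genes differed by -0.37 for HYH to 0.34 for GI without passing. Whether these differences bear on the preparation differences of AT1G29160 and AT2G28510 was not tested.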
